A study of Ovis aries with 9 samples.

Results

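A set of 10 genes of prostaglandin synthesis, breakdown, transport and reception was followed in the ovaries of 9 ewes. They were the cyclooxygenases PTGS1 and PTGS2, the terminal synthases PTGES and PTGES2, the breakdown enzyme HPGD, the transporter SLCO2A1 and the receptors PTGFR, PTGER2, PTGER3 and PTGER4. They were chosen by name for their roles in ovulation and luteolysis, and make up 10 of the 27174 rows of the count table. For 8 of them the row carries the symbol itself. SLCO2A1 is listed as LOC654334 and PTGER2 as LOC443013, which were matched through the gene numbers of RefSeq. The animals were adult ewes with 1 RNA-Seq library each. The control group was 3 Dorset ewes of wild type genotype (D4, D5 and D6), a breed of low fecundity. The other groups were 3 Small Tail Han ewes homozygous for the fecundity allele FecB (W1, W2 and W4, genotype FecBBFecBB, here Han BB) and 3 Small Tail Han ewes without it (FecB+FecB+, here Han ++; W6, W7 and W8). All 9 ewes had received a progestagen sponge and pregnant mare serum gonadotropin to synchronize estrus. Their ovaries were taken a day or somewhat more after the spontaneous estrus of the following cycle was detected. Whole ovaries bearing ovulation points were used, so every library mixes follicles, stroma and vessels with whatever luteal tissue the ovary held. Han ++ and Dorset differ in breed, while Han BB and Dorset differ in breed and FecB genotype at once.

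Prostaglandins are made from arachidonic acid by a cyclooxygenase, constitutive PTGS1 or inducible PTGS2, and then by a terminal synthase such as PTGES, which yields prostaglandin E2. SLCO2A1 takes prostaglandins into cells, where HPGD, hydroxyprostaglandin dehydrogenase, inactivates them. The surge of luteinizing hormone induces PTGS2 in granulosa cells before ovulation, and prostaglandin E2 acts through the EP receptors encoded by PTGER2, PTGER3 and PTGER4. In ewes, prostaglandin F2α from the uterus ends the life of the corpus luteum through its receptor PTGFR, which large luteal cells carry.

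Between 10803913 reads (W8) and 20992535 reads (W7) were counted on genes per library, and each prostaglandin gene had between 22 and 10694 reads in a library. Values are given as CPM, counts scaled to library size with TMM factors, and each error is the SD over the 3 animals of a group. All 10 genes passed the expression filter, as did 16871 genes in all. W4 of Han BB and D6 of Dorset were more like each other than like their groups. The rank correlation between them was 0.978, and at most 0.949 with the libraries of their own groups, so results that rest on them are also given without both. D4 stood apart in another way. Its rank correlation was at most 0.956 with any library (W2) and 0.933 within Dorset, and 1 gene took 14.9% of its reads. Results that rest on D4 are given without it too. W1 was also closer to a library of another group, W6 (0.978), than to its own (0.971). D5 was closer to W7 of Han ++ (0.962) than to any Dorset library (0.949). No Dorset library thus had another Dorset library as its closest. Defining markers of the ovary were present in every library. FSHR of granulosa cells ranged from 5.42 to 14.4 CPM, the steroidogenic enzyme HSD3B1 from 14.7 to 98.1 CPM, and CYP17A1 of theca cells from 2.81 CPM in W4 to 120 CPM in D4.

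No prostaglandin gene passed the threshold in any comparison. A gene was called at a change of more than 1.5-fold in either direction with a Benjamini-Hochberg adjusted p under 0.05, the thresholds of the study. With DESeq at these thresholds, the paper reported many more differentially expressed genes in each comparison than were called here. By edgeR's quasi-likelihood test 0 of 10 were called in Han BB against Dorset (0% of all tested genes), in Han ++ against Dorset (0.00593% of all), in Han BB against Han ++ (0% of all) and for any difference among the 3 groups (0% of all). DESeq2 also called 0 of 10 in these 4 tests, in which it called 0.244%, 0.405%, 0.0081% and 0.378% of all genes. With limma voom and quality weights the count was again 0 of 10, and 0%, 0%, 0.0119% and 0% of all genes were called. At an unadjusted p under 0.05, edgeR found 1 of 10 in Han BB against Dorset (4.99% of all genes), 1 of 10 in Han ++ against Dorset (5.27%), 0 of 10 in Han BB against Han ++ (1.97%) and 1 of 10 for any difference (3.94%). That gene was PTGER4 each time. The contrasts with Dorset share the 3 Dorset libraries, and those with Han BB or Han ++ share those libraries too. In whole ovaries, fewer cells of a type and less RNA per cell cannot be told apart.

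The median log2 fold change of the 10 genes was 0.26 in Han BB against Dorset, beside -0.0058 over all tested genes. In Han ++ against Dorset it was 0.29, beside -0.061, and in Han BB against Han ++ it was -0.21, beside 0.035. In both contrasts with Dorset 6 of the 10 estimates were above 0, while 49.4% of all tested genes were above 0 for Han BB and 44.1% for Han ++. In Han BB against Han ++ 3 of 10 were above 0, beside 53.4% of all tested genes. In Han BB against Dorset 0 of 10 lay wholly above (4.27% of all genes) and 1 wholly below (4.52%), which was PTGES2. In Han ++ against Dorset 2 lay wholly above (5.47%), SLCO2A1 and PTGER4, and 0 wholly below (5.59%). Han BB and Han ++ overlapped for all 10 genes, with 0 wholly above (4.78% of all genes) and 0 wholly below (4.59%).

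**Figure D1:**
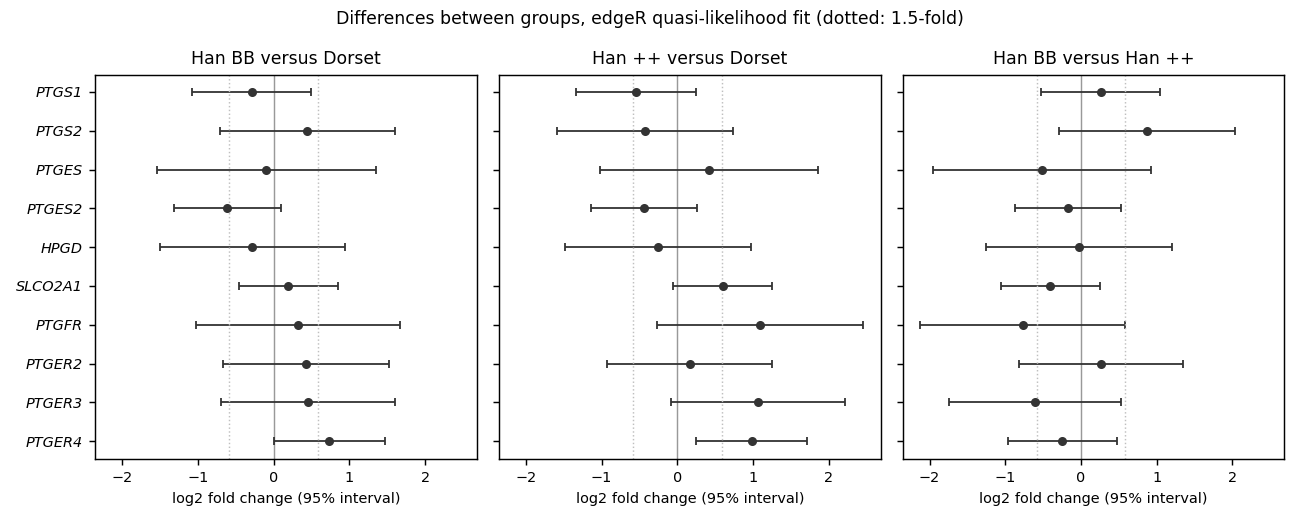
Log2 fold changes of the 10 prostaglandin genes in the 3 comparisons, with edgeR's estimate as a point and a 95% interval derived from its F statistic as a bar. Dotted lines mark a 1.5-fold difference. The interval of PTGER4 lies above 0 in both contrasts with Dorset, from 0.0050 to 1.46 for Han BB and from 0.25 to 1.71 for Han ++, and every other interval spans 0.

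The constitutive cyclooxygenase PTGS1 had its highest mean in Dorset. It measured 11.1, 13.7 and 6.70 CPM in D4, D5 and D6, then 8.31, 7.78 and 9.70 CPM in W1, W2 and W4, and 5.58, 6.29 and 9.76 CPM in W6, W7 and W8. D4 and D5 were above every Han library, but D6 lay among them. Dorset averaged 10.5 ± 3.54 CPM, Han BB 8.59 ± 0.99 CPM and Han ++ 7.21 ± 2.24 CPM (SD, n = 3). The log2 fold change was -0.29 (standard error 0.36) for Han BB against Dorset and -0.55 (standard error 0.36; unadjusted p = 0.156 by edgeR) for Han ++ against Dorset. Without W4 and D6 the latter was -0.80 (unadjusted p = 0.0331, adjusted p = 0.495 by edgeR), and limma gave -0.81 on all 9 libraries (unadjusted p = 0.0289, adjusted p = 0.427). Without D5, which had the highest PTGS1, it was only -0.30 for Han ++ and -0.029 for Han BB against Dorset. No neighbours in the order of the 3 means differed beyond their spread. PTGS1 is also the cyclooxygenase of platelets. The 5 platelet markers summed to 6.42 to 12.9 CPM in Dorset, 6.49 to 10.5 CPM in Han BB and 4.21 to 11.8 CPM in Han ++. Most of this was the integrin gene ITGA2B, which was highest in D5 (8.16 CPM), as PTGS1 was, while the defining marker GP9 had 0 reads in every library but W8. Their part in the PTGS1 values was not tested.

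PTGS2, the cyclooxygenase that the ovulatory surge induces, was set by 1 animal. W4 had 17.7 CPM, and the other Han BB libraries W1 and W2 had 6.12 and 4.41 CPM. The Dorset libraries D4, D5 and D6 had 4.77, 7.12 and 8.77 CPM, and the Han ++ libraries W6, W7 and W8 had 6.77, 5.29 and 3.22 CPM. W4 was above all other libraries, D6 came next, and the remaining 7 overlapped across groups. Han BB averaged 9.40 ± 7.21 CPM, Dorset 6.89 ± 2.01 CPM and Han ++ 5.10 ± 1.78 CPM (SD, n = 3), all within their spread. Han BB exceeded Dorset by a log2 fold change of 0.44 (standard error 0.52), which was -0.41 without W4 and -0.19 without W4 and D6. Between Han BB and Han ++ it was 0.87 (standard error 0.53; unadjusted p = 0.126 by edgeR) with all libraries and 0.029 without W4 and D6.

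Of 10 listed genes of the ovulatory response, 4 were highest in W4, as PTGS2 was, and the others were not. TNFAIP6, which encodes a hyaluronan-binding protein of the expanding cumulus, had 234 CPM in W4 and between 2.40 CPM (D6) and 35.3 CPM (W6) in the others. PTX3, another protein of the cumulus matrix, had 27.6 CPM in W4 and 2.40 to 19.7 CPM elsewhere, and the progesterone receptor PGR was also highest in W4, at 75.3 CPM. HAS2, the hyaluronan synthase of the cumulus, had 5.22 CPM in W4 and 2.30 to 4.96 CPM elsewhere. D6, with the next highest PTGS2, had the lowest TNFAIP6 of the 9 libraries, so the high values of both genes coincided in W4 but not in D6. The transcription factor CEBPB went the other way and was lowest in W4, at 4.55 CPM. RUNX2 had 12.6 CPM in W4, its lowest value after that of D6, and ADAMTS1, RUNX1, AREG and EREG were highest in D5, W8, D4 and D4. Of the 10 ovulatory genes listed, 0 were called in any comparison. In Han BB against Dorset 1 of 10 had an unadjusted p under 0.05, TNFAIP6, with a log2 fold change of 3.01 (standard error 1.32; unadjusted p = 0.0428, adjusted p = 0.975 by edgeR). In Han ++ against Dorset 1 was higher at that level, RUNX2 (unadjusted p = 0.0302), and 1 was lower, the protease gene ADAMTS1 (unadjusted p = 0.0463).

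PTGES, the inducible synthase of prostaglandin E2, varied more between animals of a group than most genes. Its values were 8.66, 3.47 and 1.23 CPM in D4, D5 and D6, then 5.27, 5.25 and 1.81 CPM in W1, W2 and W4, and 6.06, 3.94 and 7.74 CPM in W6, W7 and W8. The libraries that stood apart, D6 and W4, were the lowest of the 9, with 22 and 27 reads, and D4 was the highest, 7.05 times D6. Dorset averaged 4.45 ± 3.81 CPM, Han BB 4.11 ± 1.99 CPM and Han ++ 5.91 ± 1.91 CPM (SD, n = 3). The SD of log2 CPM within groups was 0.99, at the 80.4th percentile of all tested genes, whose median was 0.54. For Han BB the log2 fold change against Dorset was -0.096 (standard error 0.66), and it was 0.80 without D4 and 0.26 without W4. For Han ++ over Dorset it was 0.42 (standard error 0.65), and -0.022 without D6 and 1.31 without D4.

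PTGES2, a membrane-associated synthase, was in contrast among the steadier genes. W1, W2 and W4 had 4.70, 5.67 and 5.02 CPM, W6, W7 and W8 had 5.11, 6.02 and 6.26 CPM, and D4, D5 and D6 had 9.54, 6.09 and 7.93 CPM. Every Han BB value was below every Dorset value, while W8 of Han ++ was above D5. The SD of log2 CPM within groups was 0.22, at the 6.45th percentile. Han BB averaged 5.13 ± 0.50 CPM, Han ++ 5.79 ± 0.61 CPM and Dorset 7.85 ± 1.73 CPM (SD, n = 3). Han BB against Dorset gave a log2 fold change of -0.61 (standard error 0.32, 95% interval -1.31 to 0.090, unadjusted p = 0.0813 and adjusted p = 0.977 by edgeR). For Han ++ over Dorset it was -0.44 (standard error 0.32; unadjusted p = 0.197 by edgeR). Both estimates were below 0 in all 18 alternative settings, from -0.76 to -0.45 for Han BB and from -0.59 to -0.28 for Han ++, and none passed the threshold. The values nearest to 0, -0.45 and -0.28, were those without D4.

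HPGD, which inactivates prostaglandins, ranged more widely within Dorset than between groups. D4, D5 and D6 had 2.14, 6.18 and 10.6 CPM, the lowest and the highest of the 9 libraries among them. In Han BB W1, W2 and W4 had 4.03, 4.76 and 6.89 CPM, and in Han ++ W6, W7 and W8 had 3.67, 8.41 and 3.78 CPM. Both Han groups thus lay inside the Dorset range. Dorset averaged 6.31 ± 4.24 CPM, Han ++ 5.29 ± 2.71 CPM and Han BB 5.23 ± 1.48 CPM (SD, n = 3). The log2 fold changes against Dorset were -0.28 (standard error 0.56) for Han BB and -0.26 (standard error 0.56) for Han ++, and they were 0.31 and 0.32 without D6, and -0.69 and -0.66 without D4. Between Han BB and Han ++ it was -0.023 (standard error 0.56), with a 95% interval from -1.25 to 1.20, and 0.51 without W7, 0.12 without W1 and 0.045 without W2.

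SLCO2A1, the prostaglandin transporter, was one of the genes that separated Han ++ from Dorset. W6, W7 and W8 had 13.4, 16.5 and 21.9 CPM, while D4, D5 and D6 had 11.1, 12.9 and 10.2 CPM. W1, W2 and W4 had 10.3, 13.4 and 15.3 CPM and overlapped both. Han ++ averaged 17.3 ± 4.31 CPM, Han BB 13.0 ± 2.51 CPM and Dorset 11.4 ± 1.39 CPM (SD, n = 3). Han ++ against Dorset gave a log2 fold change of 0.60 (standard error 0.30, 95% interval -0.054 to 1.25, unadjusted p = 0.0685 and adjusted p = 0.981 by edgeR). It stayed between 0.42 and 0.73 in all 18 alternative settings. For Han BB over Dorset it was 0.19 (standard error 0.30), and -0.027 without W4 and D6.

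**Figure D2:**
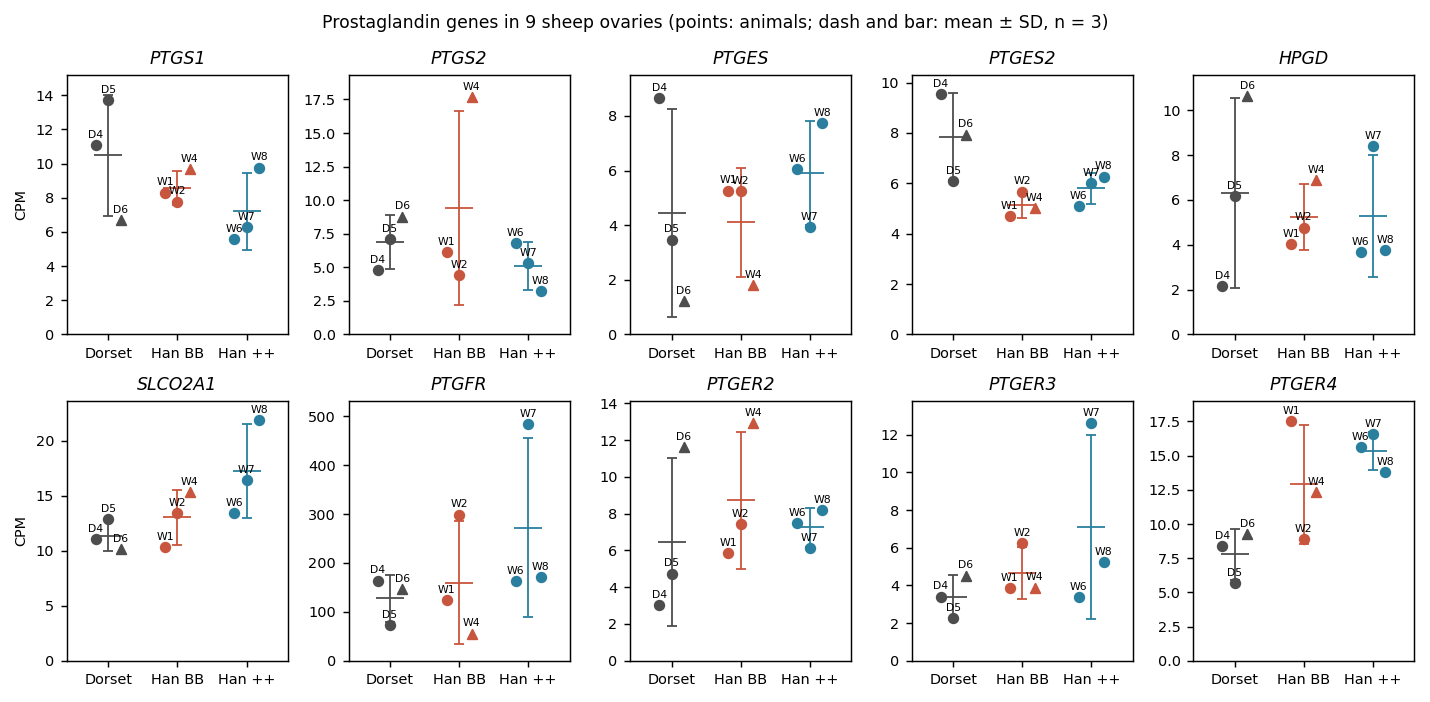
Level of each of the 10 prostaglandin genes in CPM (linear axis from 0) in the 9 libraries by group, with the mean as a dash and the SD over 3 animals as a bar; triangles mark W4 and D6. W4 is the highest for PTGS2 at 17.7 CPM, W7 the highest for PTGFR at 484 CPM, and the Han ++ libraries lie above the Dorset libraries for SLCO2A1 and PTGER4.

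The highest values of the inducible synthase PTGES and of the breakdown enzyme HPGD fell in different animals. D4 had the highest PTGES (8.66 CPM) and the lowest HPGD (2.14 CPM), and D6 had the lowest PTGES (1.23 CPM) and the highest HPGD (10.6 CPM). Across the 9 libraries, log2 CPM of PTGES and HPGD had a Pearson r of -0.87 (exact permutation p = 0.00134, adjusted p = 0.0601) and a Spearman rho of -0.93 (exact permutation p = 0.00075, adjusted p = 0.0337), both two-sided and adjusted over the 45 pairs of the 10 genes. Without D4 and D6, the libraries farthest from the median of HPGD, r was -0.76, and without W4 and D6 it was -0.89. On deviations from the group means it was -0.92, so the relation was also seen between animals of the same group. That value was not tested, since the permutations moved all 9 libraries without regard to group. This was the only one of the 45 pairs with an adjusted p under 0.05, and by Spearman's rho alone. PTGES and PTGS2 had an r of -0.78 (exact permutation p = 0.0127, adjusted p = 0.191) and a rho of -0.75 (exact permutation p = 0.0255, adjusted p = 0.382), which was -0.59 in Pearson's r without W4 and D6. W4, with the highest PTGS2, had the next lowest PTGES after D6.

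The balance of inducible cyclooxygenase over breakdown did not differ between groups beyond its spread. The log2 ratio of PTGS2 to HPGD reads, each raised by 0.5, was 1.14, 0.21 and -0.27 in D4, D5 and D6. It was 0.60, -0.11 and 1.35 in W1, W2 and W4, and 0.88, -0.67 and -0.23 in W6, W7 and W8. Each group held values on both sides of 0, and the means were 0.36 ± 0.72 in Dorset, 0.61 ± 0.73 in Han BB and -0.0044 ± 0.80 in Han ++ (SD, n = 3; exact permutation test over 1680 assignments, p = 0.586). The ratio of PTGS2 to PTGS1 averaged -0.59 ± 0.85, -0.13 ± 0.88 and -0.52 ± 0.96 on the same scale (SD, n = 3; exact permutation p = 0.80). It was above 0 in W4 (0.86), D6 (0.39) and W6 (0.28) and below 0 in the other libraries. The smallest p this design allows is 0.00357.

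Among the receptors of prostaglandin E2, PTGER4 showed the clearest difference in the set. This receptor raises cyclic AMP, as PTGER2 does. W6, W7 and W8 had 15.6, 16.6 and 13.8 CPM and D4, D5 and D6 had 8.37, 5.68 and 9.27 CPM. W1, W2 and W4 had 17.5, 8.90 and 12.3 CPM. The Han ++ values were all above the Dorset values, and of Han BB only W2 lay within the Dorset range. Han ++ averaged 15.3 ± 1.39 CPM, Han BB 12.9 ± 4.34 CPM and Dorset 7.77 ± 1.87 CPM (SD, n = 3). In Han ++ the log2 difference from Dorset was 0.98 (standard error 0.33, 1.97-fold), with an unadjusted p of 0.0132 and an adjusted p of 0.789 by edgeR, so it failed the correction. For Han BB over Dorset it was 0.73 (standard error 0.33, 1.66-fold; unadjusted p = 0.0487, adjusted p = 0.975 by edgeR). Han BB and Han ++ did not differ beyond their spread (log2 fold change -0.25, 95% interval -0.97 to 0.48). Over the 18 alternatives the Han ++ estimate ranged from 0.79 to 1.21 and the Han BB estimate from 0.46 to 1.04, with adjusted p values of at least 0.211 and 0.373. The lower limit for Han ++ was reached without D5 (unadjusted p = 0.0516 by edgeR) and that for Han BB without W1 (unadjusted p = 0.232).

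Markers of some other cell types also differed in level between these groups, and those of others did not rise in Han ++. In Han ++ against Dorset the median log2 fold change was -0.49 for theca, -0.47 for smooth muscle and -0.15 for luteal markers. It was -0.15 for platelet, -0.082 for granulosa, -0.036 for macrophage and -0.026 for endothelial markers, beside -0.061 over all tested genes. For ovarian surface markers it was 0.50, for mast cell markers 0.94, for oviduct secretory markers 1.42 and for ciliated markers 1.43. The summed level of the 3 oviduct secretory markers was 377 to 721 CPM in Dorset, 852 to 1124 CPM in Han BB and 782 to 1849 CPM in Han ++, nearly all of it OVGP1, its defining marker, which ran from 371 to 1824 CPM. All 3 were higher in Han ++ than in Dorset, 2 of them, OVGP1 and TFF3, at an unadjusted p under 0.05 (0.0042 and 9.4e-05 by edgeR). For PAX8, Dorset averaged 8.83 ± 8.12 CPM, Han BB 6.08 ± 3.04 CPM and Han ++ 11.2 ± 2.45 CPM (SD, n = 3), so its mean was lower in Han BB than in Dorset. The ciliated epithelium markers, of which 6 of 8 have a row, summed to 59.3 to 212 CPM in Dorset, 93.9 to 548 CPM in Han BB and 167 to 315 CPM in Han ++. All 6 were higher in Han ++ than in Dorset, 3 at an unadjusted p under 0.05 by edgeR. Of these, ROPN1L was the only gene that edgeR called in that contrast (log2 fold change 2.71, adjusted p = 0.0446). The defining ciliated marker FOXJ1 had 2.61 to 3.13 CPM in Dorset, 2.88 to 5.84 CPM in Han BB and 8.32 to 11.2 CPM in Han ++. For the 6 mast cell markers the sums were 42.5 to 52.4 CPM in Dorset, 46.7 to 75.2 CPM in Han BB and 70.0 to 80.3 CPM in Han ++, nearly all of it KIT, which oocytes also express, at 39.3 to 74.2 CPM, while their defining marker MS4A2 reached only 1.11 CPM. All 6 mast cell markers were higher in Han ++ than in Dorset, 1 at an unadjusted p under 0.05 by edgeR. No defining marker of the oviduct secretory, ciliated and mast cell lists was at 0. The part of the cell types in the PTGER4 and SLCO2A1 values was not tested.

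PTGER2, the EP receptor that acts in cumulus expansion, followed the libraries that stood apart rather than the groups. It was highest in W4, at 12.9 CPM, and next in D6, at 11.6 CPM. The other Han BB libraries W1 and W2 had 5.84 and 7.43 CPM, the Dorset libraries D4 and D5 had 3.02 and 4.73 CPM, and W6, W7 and W8 had 7.49, 6.11 and 8.20 CPM. With W4 and D6 set aside, D4 and D5 were the lowest libraries. Han BB averaged 8.72 ± 3.71 CPM, Han ++ 7.27 ± 1.06 CPM and Dorset 6.46 ± 4.55 CPM (SD, n = 3). The log2 fold change against Dorset was 0.43 (standard error 0.50) for Han BB, and -0.0026 without W4 and 1.17 without D6. For Han ++ over Dorset it was 0.16 (standard error 0.50) with all libraries, -0.18 without D4, -0.043 without D5 and 0.88 without W4 and D6 (unadjusted p = 0.0379, adjusted p = 0.520 by edgeR). Between Han BB and Han ++ it was 0.26 (standard error 0.49), and -0.14 without W4.

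PTGER3, the EP receptor that lowers cyclic AMP, was highest in 1 Han ++ animal. W7 had 12.6 CPM, and W6 and W8 had 3.39 and 5.25 CPM. W1, W2 and W4 had 3.84, 6.23 and 3.88 CPM, and D4, D5 and D6 had 3.41, 2.25 and 4.52 CPM. W7 was well above the next value, in W2, and the other libraries overlapped across groups. Han ++ averaged 7.09 ± 4.88 CPM, Han BB 4.65 ± 1.37 CPM and Dorset 3.39 ± 1.14 CPM (SD, n = 3). Against Dorset, Han ++ had a log2 fold change of 1.07 (standard error 0.52; unadjusted p = 0.0655, adjusted p = 0.981 by edgeR). It was 0.33 without W7 and 1.35 without W4 and D6 (unadjusted p = 0.0406, adjusted p = 0.527 by edgeR). Between Han BB and Han ++ it was -0.61 (standard error 0.51), and 0.13 without W7.

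PTGFR, the receptor of prostaglandin F2α, had the widest range of the 10 genes, from 55.6 CPM in W4 to 484 CPM in W7. D4, D5 and D6 had 164, 72.7 and 146 CPM, and W1 and W2 had 125 and 299 CPM. W6 and W8 had 163 and 171 CPM. W7 was 8.70 times W4, and W2 was the next highest, so each Han group held 1 high library. Han ++ averaged 272 ± 183 CPM, Han BB 160 ± 125 CPM and Dorset 128 ± 48.4 CPM (SD, n = 3). Set against Dorset, Han ++ had a log2 fold change of 1.09 (standard error 0.62; unadjusted p = 0.105 by edgeR and 0.0492 by limma), and 0.38 without W7. For Han BB over Dorset it was 0.32 (standard error 0.61), and -0.49 without W2. Between Han BB and Han ++ it was -0.77 (standard error 0.61), -1.59 without W2 and -0.062 without W7.

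Luteal markers varied between the same animals. All 8 have a row. Their summed level was 389 to 2542 CPM in Dorset, 701 to 2267 CPM in Han BB and 1211 to 1790 CPM in Han ++, and the lowest sums were those of D5 and W4, the libraries with the least PTGFR. OXT, the oxytocin gene that large luteal cells express, had 1.89 CPM in D5 and 9.57 CPM in W4, and between 49.7 and 782 CPM in the others. W7, the library with the most PTGFR, had neither the highest OXT nor the highest luteal sum; both were highest in D4. Not all markers of the list shared this order. The defining marker HSD3B1 was at 0 in no library and was lowest in D6 (14.7 CPM). It had 29.4 CPM in D5 and 23.7 CPM in W4. STAR was lowest in D5 (19.7 CPM) but had 167 CPM in W4. FDX1 was lowest in D5 (27.5 CPM) and highest in W4 (106 CPM). CYP11A1 was lowest in W4 (73.6 CPM) and PLIN2 in D5 (83.7 CPM). The part of the luteal markers in the PTGFR values was not tested.

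PTGFR and PTGER3 were both highest in W7 and next highest in W2. Over the 9 libraries their Pearson r was 0.82 (exact permutation p = 0.00765, adjusted p = 0.172 over 45 pairs) and their Spearman rho 0.67 (exact permutation p = 0.0589, adjusted p = 0.663). Without W7 and D5, the libraries farthest from the median of PTGER3, r was 0.52, and without W4 and D6 it was 0.95. The relation thus rested in part on W7 and D5 and did not pass the correction.

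**Figure D3:**
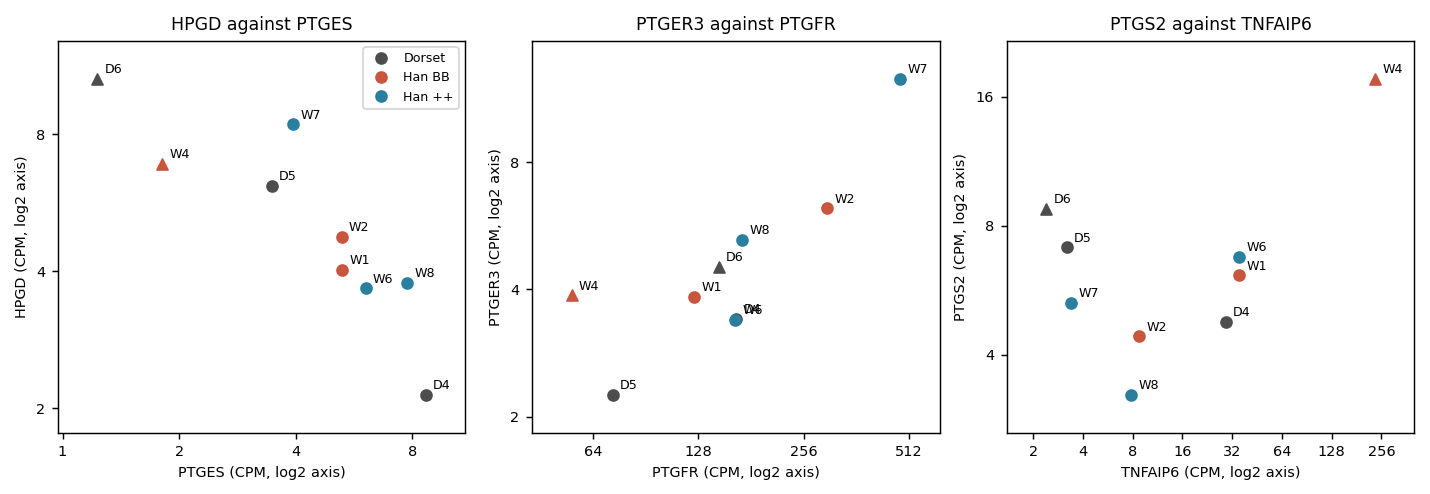
HPGD against PTGES, PTGER3 against PTGFR and PTGS2 against TNFAIP6, each in CPM on log2 axes, 1 point per library, coloured by group, with W4 and D6 as triangles. Libraries with more PTGES have less HPGD (r = -0.87), W7 and W2 are highest for both receptors, and W4 is highest for both PTGS2 and TNFAIP6.

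The genes whose log2 CPM followed a prostaglandin gene most closely over the 9 libraries are given as a description. For PTGS2 they were TFCP2 (Pearson r = 0.98), TRMT10B (r = 0.97) and DHX40 (r = 0.97). HPGD was followed by the estrogen receptor ESR1 (r = 0.97), the catenin CTNNA1 (r = 0.95) and ALX1 (r = 0.95). For PTGFR the genes were LOC101103023 (r = 0.92), EIF4G2 (r = 0.89) and the coagulation factor F10 (r = 0.88). PTGER3 was followed by FUCA1 (r = 0.91), the neuropeptide Y receptor NPY1R (r = 0.90) and HDC (r = 0.88), the histidine decarboxylase of mast cells. HDC itself was low, at 0.29 to 1.58 CPM. All these correlations were chosen as the highest among 16871 genes, and the 9 libraries share the split of W4 and D6. Ranking by Spearman's rho gave 3 other genes for each of the 4.

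The rest of the pathway, a list of 17 further prostanoid genes, likewise held no call. PTGDS and CBR1 have no row, and of the 15 others 13 were tested. PTGER1, the remaining EP receptor, had at most 5 reads in a library and PTGDR2 at most 15, and neither was tested. Of the 13, 7 were higher in Han BB than in Dorset, 6 in Han ++ than in Dorset and 7 in Han BB than in Han ++, and 0 had an unadjusted p under 0.05 in these comparisons by edgeR. The medians of their log2 fold changes were 0.11, -0.017 and 0.013. limma gave TBXAS1, thromboxane synthase, an unadjusted p of 0.0118 in Han BB against Dorset (adjusted p = 0.354). TBXAS1 ranged from 3.61 CPM in D5 and 6.70 CPM in D6 to 41.3 CPM in W2, and its log2 fold change by edgeR was 1.16 (standard error 0.63) for Han BB and 1.15 (standard error 0.63) for Han ++ over Dorset. Thromboxane synthase is known from platelets and macrophages. The 7 macrophage markers with a row summed to 295 and 300 CPM in D5 and D6, the lowest of the 9 libraries, but their defining marker CSF1R ran the other way, with its highest value in D5 (42.9 CPM), 34.1 CPM in D6 and its lowest in D4 (10.8 CPM), where the sum was highest (1021 CPM). Their part in the TBXAS1 values was not tested.

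Several genes of the pathway had W4 and D6 as their 2 highest or 2 lowest libraries. These libraries were alike over all tested genes (rank correlation 0.978). The share of all genes with both at an extreme was not counted, so this is not particular to the pathway. PTGES3, a cytosolic synthase and cochaperone listed as LOC101101884, was at 402 CPM (W4) and 373 CPM (D6), and at 119 to 230 CPM elsewhere. PTGES, the inducible synthase, was lowest in the same 2 libraries. PTGS2 and PTGER2 were both highest in W4 and next highest in D6. PTGIS, prostacyclin synthase, had 1 read in W4 and 2 reads in D6, against 12 to 25 reads in the others. A further row, PTGIS.1, held 29.6 to 180 CPM, lowest in D6 (29.6 CPM) and W4 (41.7 CPM). The sources used here do not say how reads were divided between the PTGIS rows, and the level of PTGIS is uncertain.

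W4 and D6 were not alike in every gene of the pathway. PLA2G4A, which releases arachidonic acid, was highest in W4 (29.6 CPM) and lowest in D4 (13.6 CPM), and D6 had 23.6 CPM. PTGR2, a reductase that continues the breakdown after HPGD, was again highest in W4 (29.3 CPM) and lowest in D4 (9.05 CPM). D6 had 22.7 CPM of it. ABCC4, which exports prostaglandins, had 31.0 CPM in W4, 19.9 CPM in D6 and 10.4 CPM in D4. AKR1B1, an aldose reductase with prostaglandin F synthase activity, showed the reverse. It had 180 CPM in D4, 97.5 CPM in D6 and 57.5 CPM in W4. PTGFRN, a protein that binds and restrains the F2α receptor, was in contrast low in both W4 and D6. It was lowest in W4 (124 CPM), next lowest in D6 (165 CPM) and highest in D5 (277 CPM). PTGR1 was the steadiest of these enzymes, from 107 to 181 CPM.

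**Figure D4:**
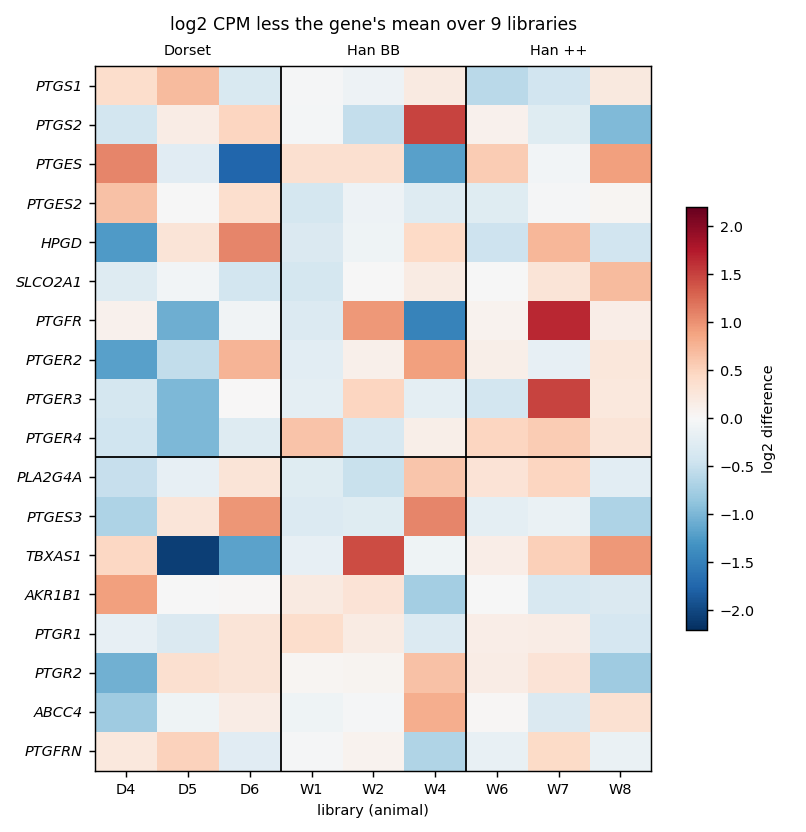
Log2 CPM of the 10 prostaglandin genes (above the line) and of 8 further genes of the pathway with more than 3 reads in every library, each less its mean over the 9 libraries (colour, red above and blue below the mean), with libraries grouped as Dorset, Han BB and Han ++. W4 and D6 are blue for PTGES and red for PTGES3, and the extremes of a gene often fall in single animals.

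Over the 10 genes, the SD of log2 CPM within groups ran from 0.22 in PTGES2 to 0.99 in PTGES. PTGES2, SLCO2A1 (0.28), PTGER4 (0.36) and PTGS1 (0.40) were under the median of all tested genes, 0.54. PTGER3 and PTGER2 (0.67 each), PTGS2 (0.73), HPGD (0.81), PTGFR (0.94) and PTGES were above it. The 3 genes whose groups separated in a comparison, PTGES2, SLCO2A1 and PTGER4, were those with the lowest spread. Separation and spread come from the same values, and a low spread makes separation likelier, so this is a description only.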

How the data were processed

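RNA-Seq of 9 sheep ovaries was analysed. The authors aligned reads to Oar_v3.1 with TopHat, used the uniquely mapped ones and deposited the counts of each gene without normalization. The sources used here name neither the counting program nor its strand setting, and the library kit is stated in 2 ways, so genes with overlapping or near-identical neighbours are uncertain. From the deposited counts, edgeR 4.0.16 (R 4.3.3) gave TMM factors, an expression filter by group, 1 quasi-likelihood fit of all 9 libraries and Benjamini-Hochberg adjusted p values over 16871 genes. Alternatives were DESeq2 1.42.0, limma 3.58.1, DESeq2 size factors, no filter, 1 CPM in 3 libraries, fits of 2 groups, no fold threshold, a prior count of 2 in the ratios, leaving out libraries and a term for W4 and D6. The fits were tested on simulated data. The common biological coefficient of variation was 0.472; with separate animals as replicates, this spread limits precision. PCR reads are not independent molecules. All members were named, with the listed pathway genes and the 3 genes closest to PTGS2, HPGD, PTGFR and PTGER3 in Pearson's r of log2 CPM (prior count 0.5). From the ovulatory and marker lists, genes were named where set beside a member. Members and lists were chosen with earlier results of these data known, as was the split of W4 and D6. RefSeq gene numbers came from ARS-UI_Ramb_v3.0, another assembly, used for names only, and sequences were not used here. Of the listed marker and pathway genes, 7 have no row. Figures used matplotlib.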

Additional observations from a re-analysis of the deposited data

How the results depend on the processing

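The 10 prostaglandin genes gave 30 log2 fold changes over the 3 comparisons, and 18 alternative settings gave 540 further values. Of these, 512 kept their direction and stayed short of the threshold, 28 turned direction, and 0 passed the threshold. For 18 of the 30 the direction was the same in every setting. limma voom with quality weights turned PTGS2 (-0.23), PTGES (0.64) and SLCO2A1 (-0.050) in Han BB against Dorset and PTGER2 (-0.089) in Han BB against Han ++. Without W4 and D6, PTGS2 (-0.19), HPGD (0.034) and SLCO2A1 (-0.027) turned in Han BB against Dorset, PTGES (-0.018) and HPGD (0.32) in Han ++ against Dorset, and PTGER2 (-0.14) in Han BB against Han ++. With a term for W4 and D6, PTGES (0.032) turned in Han BB against Dorset, HPGD (0.21) in Han ++ against Dorset and PTGER2 (-0.23) in Han BB against Han ++. With each library left out in turn, Han BB against Dorset ran from -0.41 to 0.79 for PTGS2, from -0.53 to 0.80 for PTGES, from -0.69 to 0.31 for HPGD, from -0.49 to 0.71 for PTGFR and from -0.0026 to 1.17 for PTGER2. Han ++ against Dorset ran from -0.022 to 1.31 for PTGES, from -0.79 to 0.32 for HPGD and from -0.18 to 0.88 for PTGER2. Han BB against Han ++ ran from -0.28 to 0.51 for HPGD, from -0.14 to 0.49 for PTGER2 and from -0.94 to 0.13 for PTGER3. The cause was not tested.

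The count of prostaglandin genes called was 0 in every setting. Over all genes, DESeq2 called 38 in Han BB against Dorset, 65 in Han ++ against Dorset, 2 in Han BB against Han ++ and 59 for any difference, where edgeR called 0, 1, 0 and 0. limma called 0 in Han ++ against Dorset and 2 in Han BB against Han ++. No filter gave 2 in Han BB against Dorset, 11 in Han ++ against Dorset and 4 for any difference, and fits of 2 groups gave 0 in Han ++ against Dorset. Without W4 and D6 these counts were 2, 22 and 5, and with a term for them 1, 78 and 16. Leaving out single libraries gave 0 to 1, 0 to 5 and 0 to 3. At an unadjusted p under 0.05, Han ++ against Dorset held 4 prostaglandin genes without W4 and D6 (PTGS1, PTGER2, PTGER3 and PTGER4), 3 with the term (SLCO2A1, PTGER2 and PTGER4), 3 by limma (PTGS1, PTGFR and PTGER4) and 1 by edgeR (5.27% of all genes). The share of all genes at that level was not counted in the other settings, so these counts have no baseline. Calls over all genes rose from 1 to 22 without W4 and D6 and to 78 with the term. No paired analysis was possible because the groups hold different animals, and no label says that a number in their names marks a shared litter, batch or day. With 3 animals a group, PTGES with 22 reads in D6 and HPGD with 22 reads in D4 were the lowest counts behind a value.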
